A study of Homo sapiens with 6 samples.

Results

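Cofilin 2 (CFL2), its closest relatives and the enzymes that switch them on and off form a set of 10 genes, chosen by gene symbol out of 39261 named probe sets. The set holds the actin-depolymerizing proteins CFL1, CFL2 and DSTN, the kinases LIMK1 and LIMK2, the phosphatases SSH1, SSH2, SSH3 and PDXP, and the cyclase-associated protein CAP1. All 10 were measured, each by 1 probe set. CFL2 gave its name to the set because of its lower signal after transfection with siH19-2, so its values, and those of the other members in the same comparison, are given as a description and not as a test.

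Gene expression was measured on 6 Clariom D arrays of the established human cell line MIA-PaCa2, which derives from a pancreatic ductal adenocarcinoma (PDAC). Of these, 3 arrays were of cells transfected with AllStars Negative Control siRNA (NC), a nonsense siRNA, and 3 were of cells transfected with siH19-2, an siRNA against the long noncoding RNA H19. Both groups were lipotransfected with lipofectamine 2000 and had RNA taken after 24 h. By the labels 20 µg of each siRNA were used, whereas the methods give 50 nM. Arrays of the other H19 siRNA were not analysed here. From these arrays, an effect that belongs to 1 siRNA sequence cannot be told apart from one that follows from H19. The paper names UHMK1, MIGA1, SERPINB9, SGPL1, ZNF56 and ZNF616 as candidates shared by both H19 siRNAs, and CFL2 is not among them.

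Cofilins bind actin filaments, sever them and speed the release of subunits from their ends, which frees monomers for new growth. A LIM kinase (LIMK) phosphorylates a serine near the start of the cofilin protein and turns it off, and the slingshot phosphatases (SSH) and chronophin (PDXP) remove this phosphate. The LIM kinases in turn are activated by other kinases, among them those of the PAK family. CFL1 is the cofilin found in most cells, whereas CFL2 is best known as the muscle form. This balance of kinase and phosphatase is known for its part in the migration of carcinoma cells. The arrays measure RNA and do not show phosphorylation.

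The values are log2 signals, so a difference of 1 stands for a doubling of signal. The signal of 1 probe set is no measure of amount against another probe set, and changes are therefore compared between arrays. Genes of similar sequence can also share signal where probes match both. H19 itself had a log2 signal of 7.36, 7.43 and 7.42 on the NC arrays and 7.10, 7.09 and 7.13 on the siH19-2 arrays, a fall of 0.30 (standard error 0.036, adjusted p = 0.012 from limma). Without NC replicate 2 this adjusted p was 0.067, without NC replicate 3 it was 0.063, and without siH19-2 replicate 1 or 2 it was 0.059 or 0.053. Arrays correlated at 0.993 to 0.995 within a group and at 0.991 to 0.993 between groups. By principal component 2 (19.7% of the variance), siH19-2 replicate 3 stood apart at 21.1 from the other arrays of its group at -16.6 and -11.1. An NC signal above the median of all probe sets was found for 4 of 5 epithelial markers (all but EPCAM) and both mesenchymal markers, but also for 3 of 5 markers of skeletal muscle, 2 of 3 of endothelium and 2 of 5 each of leukocytes, fibroblasts and acinar and islet pancreas. These levels of different probe sets therefore do not settle the cell type. KRT19 fell by 0.40 (adjusted p = 0.032 from limma), and no other epithelial or mesenchymal marker passed. Whether the arrays came from separate cultures is not stated for them, so p-values may measure only a technical spread.

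CFL2 was far lower after transfection with siH19-2, whereas CFL1 and DSTN were at nearly the same signal in both groups. The log2 signal of CFL2 (gene ID 1073) was 9.30, 9.30 and 9.26 on the NC arrays and 7.71, 7.77 and 7.82 on the siH19-2 arrays. Each siH19-2 array was more than 1.4 units below each NC array, and the groups did not overlap. The means were 9.29 ± 0.03 and 7.76 ± 0.06 (SD, n = 3 each), a log2 difference of -1.52 (standard error 0.042, 95% interval -1.63 to -1.42), which corresponds to 34.8% of the signal in NC (95% interval 32.4% to 37.4%). When any one array was left out, the log2 difference of CFL2 stayed between -1.55 and -1.49. Fewer cells with the transcript and less transcript per cell cannot be told apart in RNA from whole cultures.

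CFL1 (gene ID 1072), the cofilin of most cells, had 11.73, 11.70 and 11.67 on the NC arrays and 11.68, 11.78 and 11.57 on the siH19-2 arrays. The siH19-2 arrays lay on both sides of the NC arrays and were more spread, with an SD of 0.11 against 0.03 (n = 3 each). The log2 difference of CFL1 was -0.02 (95% interval -0.17 to 0.12), which leaves room for a signal between 88.8% and 108.9% of that in NC. DSTN (gene ID 11034), which encodes destrin, also called actin-depolymerizing factor, had 9.10, 9.17 and 9.18 on the NC arrays and 9.18, 9.19 and 9.17 on the siH19-2 arrays. These values overlapped, and the log2 difference of DSTN was 0.03 (95% interval -0.06 to 0.12). Within each array, the distance of CFL2 to CFL1 shifted by -1.50 between the groups (95% interval -1.73 to -1.27) and that of CFL2 to DSTN by -1.55 (95% interval -1.69 to -1.41). For CFL1 against DSTN the shift was -0.05 (95% interval -0.24 to 0.13).

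**Figure D1:**
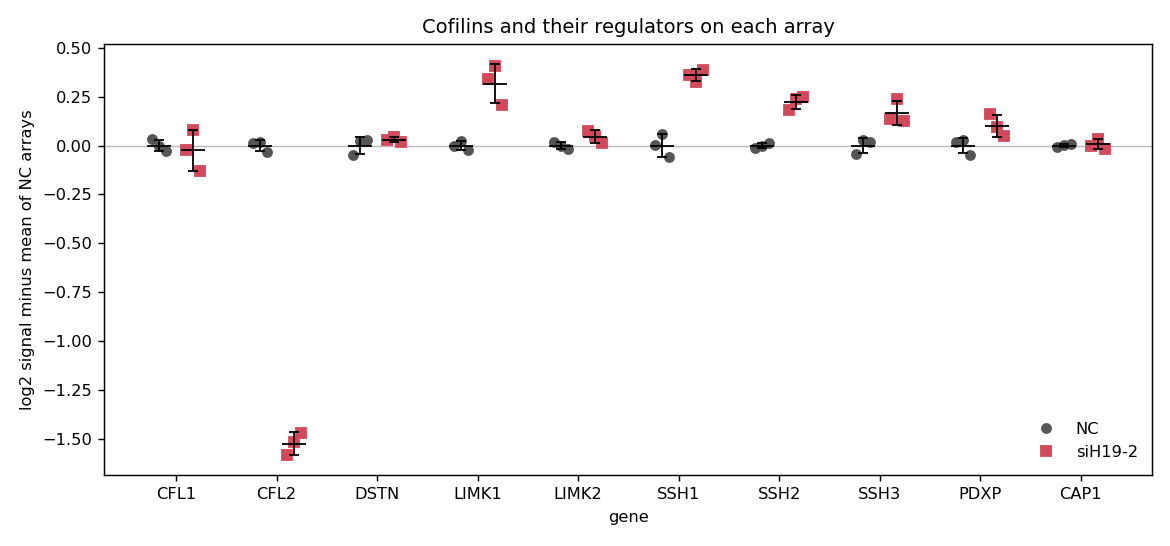
Log2 signal of each gene on each array, minus the mean of that gene on the 3 NC arrays (vertical axis), for the 10 genes (horizontal axis). Circles are NC arrays, squares are siH19-2 arrays, and bars give the mean ± SD of 3 arrays. The CFL2 squares lie near -1.52, the LIMK1, SSH1, SSH2, SSH3 and PDXP squares lie above their circles, and the symbols of CFL1, DSTN, LIMK2 and CAP1 overlap.

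Of the LIM kinases, LIMK1 was higher in siH19-2 and LIMK2 was nearly level. LIMK1 (gene ID 3984) had a log2 signal of 8.83, 8.86 and 8.81 on the NC arrays and 9.17, 9.23 and 9.04 on the siH19-2 arrays. All siH19-2 arrays were above all NC arrays, with siH19-2 replicate 3 the nearest to them. The log2 difference of LIMK1 was 0.32 (standard error 0.058, 95% interval 0.17 to 0.46), a signal of 124.5% of NC. It ranged from 0.27 to 0.37 when any one array was left out. LIMK2 (gene ID 3985), which phosphorylates the same cofilin serine, had 6.66, 6.64 and 6.62 on the NC arrays and 6.72, 6.69 and 6.65 on the siH19-2 arrays. The groups overlapped, and the log2 difference of LIMK2 was 0.04 (95% interval -0.04 to 0.13). The change of LIMK1 exceeded that of LIMK2 on the same arrays by 0.27 (95% interval 0.13 to 0.41).

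Of the 4 phosphatases, SSH1 and SSH2 had an adjusted p under 0.05 from limma and were higher, and SSH3 and PDXP did not pass. Over all probe sets 2.64% were higher at this threshold, and above the median signal 5.03% were. Without any one array, the adjusted p from limma was 0.042 to 0.066 for SSH1 and 0.067 to 0.12 for SSH2. The groups did not overlap for any of the 4, with siH19-2 above NC, as for 18.3% of all probe sets. Nothing is read from these counts. SSH1 (gene ID 54434), the slingshot phosphatase best known for acting on cofilin, had 7.63, 7.68 and 7.56 on the NC arrays and 7.99, 7.95 and 8.01 on the siH19-2 arrays. Its log2 difference was 0.36 (standard error 0.044, 95% interval 0.25 to 0.47), a signal of 128.2% of NC. SSH2 (gene ID 85464) had 8.19, 8.20 and 8.22 on the NC arrays and 8.38, 8.44 and 8.45 on the siH19-2 arrays. The spread of SSH2 was small in both groups (SD 0.01 and 0.03, n = 3 each) beside its log2 difference of 0.22 (95% interval 0.14 to 0.31).

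SSH3 (gene ID 54961), the third slingshot gene, had 7.76, 7.83 and 7.82 on the NC arrays and 7.94, 8.04 and 7.93 on the siH19-2 arrays, a log2 difference of 0.17 (95% interval 0.05 to 0.28). PDXP (gene ID 57026) encodes chronophin, which also removes the phosphate of vitamin B6. Its arrays had 8.43, 8.44 and 8.36 in NC and 8.57, 8.50 and 8.46 in siH19-2, so that the nearest arrays of the groups were less than 0.1 apart. The log2 difference of PDXP was 0.10, with a 95% interval of -0.01 to 0.21 that includes 0. The change of SSH1 exceeded that of SSH2 by 0.14 (95% interval 0.0071 to 0.27) and that of SSH3 by 0.19 (95% interval 0.01 to 0.38). For SSH2 against SSH3 the difference was 0.06 (95% interval -0.05 to 0.17). These intervals are not adjusted for the number of pairs, and no order of the genes is read from them.

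The kinase LIMK1 was also compared with the opposing phosphatases SSH1 and SSH2. The change of LIMK1 minus that of SSH1 was -0.04 (95% interval -0.26 to 0.18), and minus that of SSH2 it was 0.10 (95% interval -0.10 to 0.29). These intervals include 0 but would also hold differences in either direction that are as large as a good part of the changes themselves.

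CAP1 (gene ID 10487) binds actin monomers and works with cofilin in taking filaments apart. It had 11.19, 11.20 and 11.20 on the NC arrays and 11.19, 11.23 and 11.18 on the siH19-2 arrays. The NC values lay inside the range of the siH19-2 values, and the log2 difference was 0.01 (95% interval -0.07 to 0.09).

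In the fit with limma across all probe sets, 4 of the 10 genes had an adjusted p under 0.05, CFL2 being lower and LIMK1, SSH1 and SSH2 higher. Over all probe sets this share was 5.26%, with 2.63% lower and 2.64% higher, and above the median signal, where all 10 genes lie, it was 9.84%. The groups did not overlap for 6 of the 10 genes, 1 lower and 5 higher, where 28.3% of all probe sets showed no overlap, 9.98% lower and 18.3% higher. Since the comparison itself chose the set, nothing is read from these counts. CFL2 was under the threshold without any one of the 6 arrays, from which nothing is read either, since its fall chose it. The number of higher genes among the 10 fell from 3 to 0 without NC replicate 1, NC replicate 3 or siH19-2 replicate 1, to 1 without NC replicate 2 or siH19-2 replicate 2, and to 2 without siH19-2 replicate 3. All 3 kept a positive difference in each of these fits, which was bound to hold because their groups did not overlap.

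**Figure D2:**
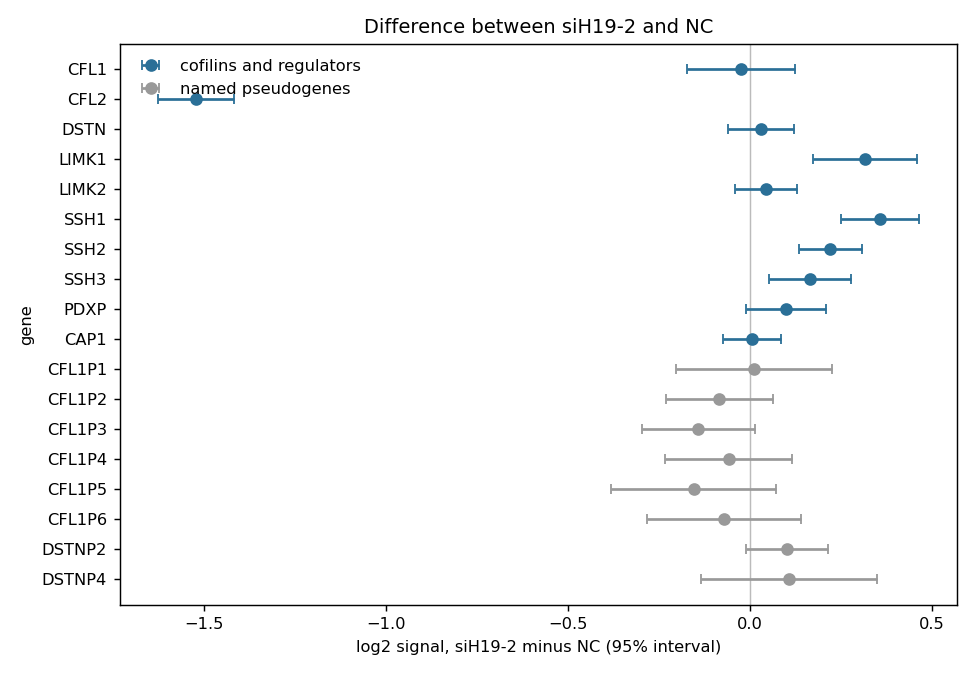
Log2 signal of siH19-2 minus NC (horizontal axis) with its 95% interval from limma for the 10 genes and for 8 probe sets named as their pseudogenes (vertical axis). CFL2 stands alone at -1.52, the intervals of LIMK1, SSH1, SSH2 and SSH3 lie above 0, and all other intervals include 0.

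By symbol, the files also name 6 pseudogenes of CFL1 and 2 of DSTN, and none of CFL2. Such copies can share probes with their parent, so their values are uncertain. None of the 8 had an adjusted p under 0.05 from limma, and 0 had an unadjusted p under 0.05. Their log2 differences ran from -0.15 for CFL1P5 to 0.11 for DSTNP4, around those of the parent genes. DSTNP4 was dim, with a mean log2 signal of 4.09 in NC, and RefSeq classes it as protein-coding. CFL1P3 had 9.30, 9.27 and 9.34 on the NC arrays and 9.14, 9.28 and 9.06 on the siH19-2 arrays, so that siH19-2 replicate 2 lay within the NC range. DSTNP2 was the only one whose groups did not overlap, at 9.13, 9.08 and 9.18 against 9.19, 9.21 and 9.29. Over all probe sets 28.3% showed no overlap, so nothing is read from this. No copy of its relatives had a difference near that of CFL2, and the upper and lower ends of their intervals lay between -0.38 and 0.35.

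The profile of CFL2 over the 6 arrays was compared with that of every other named probe set by the root mean square distance of the log2 values, each minus its own NC mean. The nearest were VTA1, a factor of multivesicular body sorting (distance 0.078), SERPINB9, an inhibitor of granzyme B (0.098), and MIGA1, a mitochondrial outer membrane protein (0.11). MSMO1, a sterol oxidase of cholesterol synthesis (0.16), and the kinase UHMK1 (0.20) followed. Their log2 differences lay between -1.48 for VTA1 and -1.25 for UHMK1. This likeness is a description over 6 arrays that all of these genes share. It mostly follows the size of the log2 difference, which is large beside the spread within the groups. Of these genes, the paper names SERPINB9, MIGA1 and UHMK1 as shared by both H19 siRNAs, but not VTA1, MSMO1 or CFL2.

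Other genes of actin dynamics were examined beside the 10 genes. In 7 lists with 136 genes, all of them measured, 9 genes were lower and 12 were higher at an adjusted p under 0.05 from limma, and 115 did not pass. That is 6.62% lower and 8.82% higher. Of all probe sets above the median signal, where 113 of the 136 lie, 4.8% were lower and 5.03% higher. The same shares stand beside the counts of each list below. The median log2 difference was 0.04, and that of all probe sets was 0.02. When any one array was left out, the number of lower genes was 6 to 9, and that of higher genes was 2 without NC replicate 1 or 2, 3 without NC replicate 3 and 5 without any one siH19-2 array.

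Among 23 GTPases and kinases of LIM kinase and cofilin control, 1 fell, 2 rose and 20 did not pass, with a median of 0.07. PAK2, a kinase that RAC1 and CDC42 activate, had 10.29, 10.22 and 10.26 on the NC arrays and 9.57, 9.51 and 9.66 on the siH19-2 arrays. PAK2 fell by 0.68 (adjusted p = 0.0026 from limma, standard error 0.048), to 62.6% of the NC signal, and passed without any one array. RAC1 itself, the GTPase that drives lamellipodia, rose by 0.30 (adjusted p = 0.016 from limma). Its arrays had 9.81, 9.72 and 9.73 in NC and 10.03, 10.05 and 10.09 in siH19-2, without overlap. The adjusted p of RAC1 was 0.0504 to 0.077 without any one array. PRKD2, a protein kinase D, rose by 0.16 (adjusted p = 0.049), and this became 0.099 to 0.18 without any one array and 0.067 after cyclic loess. TESK1, a further kinase of cofilin, had a log2 difference of 0.15 and did not pass (adjusted p = 0.063). It passed among the brighter probe sets alone (0.013), with a robust prior that follows the intensity trend (0.015) and by the methods' t-test (0.020).

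Among 30 genes of actin turnover, capping and monomer binding, 2 fell, 4 rose and 24 did not pass, with a median of 0.06. The number of higher genes in this list was 1 to 3 without any one array. CAP2, the second cyclase-associated protein and mainly a protein of heart and skeletal muscle, had 9.60, 9.67 and 9.56 on the NC arrays and 8.84, 8.86 and 8.92 on the siH19-2 arrays. CAP2 fell by 0.73 (adjusted p = 0.0017 from limma, standard error 0.044), to 60.1% of the NC signal. CAPZA2, an alpha subunit of the protein that caps filament ends, fell by 0.54 (adjusted p = 0.0088). WDR1, which breaks up filaments that carry cofilin, had 10.33, 10.33 and 10.28 on the NC arrays and 10.66, 10.67 and 10.66 on the siH19-2 arrays. WDR1 rose by 0.35 (standard error 0.034, adjusted p = 0.0059), with an SD of 0.0060 between the siH19-2 arrays. CAP2, CAPZA2 and WDR1 passed without any one array. MICAL2, an enzyme that oxidises actin, rose by 0.42 (adjusted p = 0.0094), which became 0.053 or 0.054 without any one NC array.

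Of the 38 nucleation factors, 3 fell, 3 rose and 32 did not pass, with a median of 0.04. WASF1, a WAVE protein that activates the Arp2/3 complex, had 8.19, 8.20 and 8.14 on the NC arrays and 7.54, 7.44 and 7.49 on the siH19-2 arrays, a fall of 0.68 (standard error 0.042, adjusted p = 0.0018 from limma). ABI2, an adaptor in the same WAVE complex, fell by 0.37 (adjusted p = 0.0051). ARPC1A, a subunit of the Arp2/3 complex, fell by 0.26 (adjusted p = 0.014), and its adjusted p was 0.059 to 0.076 without any one array except siH19-2 replicate 3, without which it was 0.038. CTTN, which encodes cortactin, a stabiliser of Arp2/3 branches, had 10.02, 10.03 and 10.00 on the NC arrays and 10.49, 10.48 and 10.51 on the siH19-2 arrays. CTTN rose by 0.47 (standard error 0.032, adjusted p = 0.0022), the largest rise in the 7 lists. WASF1, ABI2 and CTTN passed without any one array.

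Among 7 other proteins with the actin-binding fold of cofilin, COTL1, the coactosin-like protein, fell by 0.35 (adjusted p = 0.025 from limma) and DBN1, drebrin, rose by 0.23 (adjusted p = 0.031). COTL1 passed only without siH19-2 replicate 3 (0.045) and otherwise had 0.064 to 0.10, and the methods' t-test gave 0.053 with Benjamini-Hochberg adjustment. DBN1 had 0.065 to 0.12 without any one array. Both twinfilins did not pass, with log2 differences of -0.13 for TWF2 and -0.06 for TWF1, though TWF2 passed among the brighter probe sets alone (0.044).

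Of 19 filament binders and crosslinkers, 1 fell, 1 rose and 17 did not pass. RDX, which encodes radixin, a linker between filaments and the membrane, had 9.63, 9.60 and 9.66 on the NC arrays and 9.28, 9.24 and 9.27 on the siH19-2 arrays, a fall of 0.36 (standard error 0.035, adjusted p = 0.0061 from limma) that passed without any one array. TPM4, a tropomyosin, rose by 0.38 (adjusted p = 0.032). TPM4 kept its call only without siH19-2 replicate 1 (0.041), had 0.068 to 0.12 without any other array, and the methods' t-test gave 0.070 with Benjamini-Hochberg adjustment.

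None of the 6 actins passed by limma, and 1 of them, ACTB, had an unadjusted p under 0.05. ACTB had 12.44, 12.49 and 12.46 on the NC arrays and 12.59, 12.62 and 12.59 on the siH19-2 arrays, a log2 difference of 0.13 (adjusted p = 0.090). It passed among the brighter probe sets alone (0.022), with a robust prior that follows the intensity trend (0.011) and by the methods' t-test (0.035). In the list of SRF, its MRTF coactivators, which monomeric actin holds back, and their targets, 1 of 13 fell, 1 rose and 11 did not pass. CCN1, a secreted matrix protein that the files name CYR61, rose by 0.35 (adjusted p = 0.0079), and this was 0.051 without NC replicate 1 or NC replicate 2. EGR1, an immediate early transcription factor, fell by 0.26 (adjusted p = 0.035), and this was 0.10 to 0.13 without any one array except siH19-2 replicate 3 (0.036) and 0.054 by the methods' t-test. SRF itself had a log2 difference of 0.17 (adjusted p = 0.056) and passed in 3 of the alternative settings, with a lowest adjusted p of 0.012.

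The other 4 higher genes of the lists, outside the rule for named genes, were the coronins CORO7 (log2 difference 0.24) and CORO1B (0.25), the formin DIAPH1 (0.25) and the WAVE complex subunit BRK1 (0.19), with adjusted p of 0.025 to 0.046 from limma. When any one NC array was left out, none of these 4 passed.

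**Figure D3:**
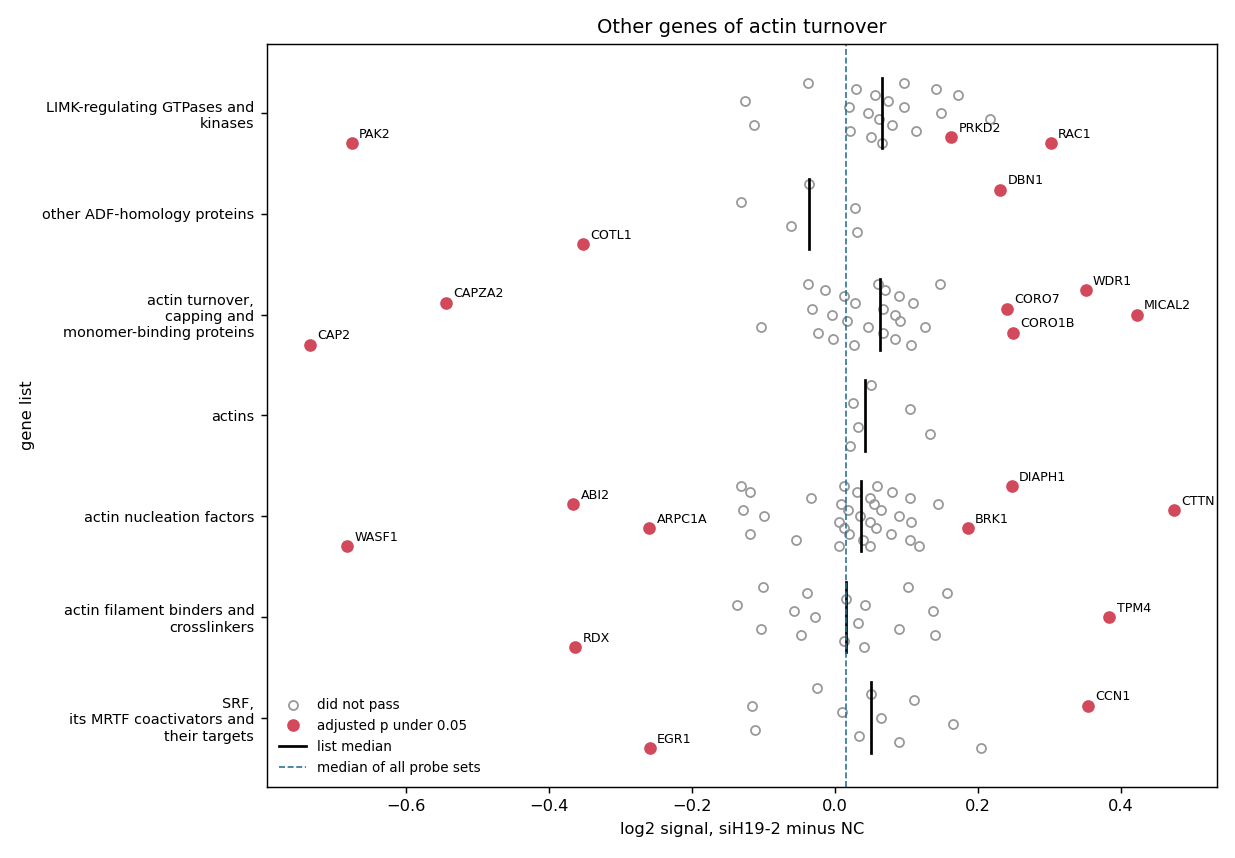
Log2 signal of siH19-2 minus NC (horizontal axis) for 136 genes in 7 lists (vertical axis), with height within a list only separating the points. Filled points had an adjusted p under 0.05 from limma and carry their names, black lines are list medians, and the dashed line is the median of all probe sets at 0.02. CAP2, WASF1, PAK2 and CAPZA2 lie lowest and CTTN and MICAL2 highest, while the list medians lie between -0.04 and 0.07.

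The changes of the lower genes were set beside those of their close relatives. The 10 genes and the lists hold 23 families of paralogues, which were grouped after the values were seen, and in 8 of them a gene was lower at an adjusted p under 0.05. In each of these 8 it was a single gene, and no family held both a lower and a higher gene. A gene was higher in 8 families as well, and among the slingshot phosphatases both SSH1 and SSH2 were. Above the median signal 4.8% of probe sets were lower, so nothing is read from these single genes. CFL2 was lower, whereas CFL1 and DSTN did not pass. On the same arrays the change of CAP2 was below that of CAP1 by more than 0.6, with a shift of -0.74 (95% interval -0.87 to -0.61). The change of PAK2 against PAK1, which itself had a log2 difference of 0.14, was -0.82 (95% interval -0.92 to -0.71), and against PAK3 it was -0.70 (95% interval -0.80 to -0.59).

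WASF1 stood apart from WASF2 by -0.69 (95% interval -0.83 to -0.55), and CAPZA2 from CAPZA1 by -0.61 (95% interval -0.77 to -0.46). For RDX the shift against EZR, the related linker ezrin, was -0.38 (95% interval -0.44 to -0.31). ABI2 and ARPC1A differed less from their partners, by -0.25 against ABI1 (95% interval -0.35 to -0.14) and by -0.16 against ARPC1B (95% interval -0.30 to -0.02). ABI1 (log2 difference -0.12) and ARPC1B (-0.099) did not pass. Their siH19-2 arrays lay below all NC arrays, as for 9.98% of all probe sets, and nothing is read from this. Among all 50 pairs within the 23 families, the interval left out 0 in 37, so unequal changes between relatives were common here in general. The lower gene of each pair was picked by its value, and the intervals, which come from the 6 arrays pair by pair, are not adjusted for the number of pairs.

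**Figure D4:**
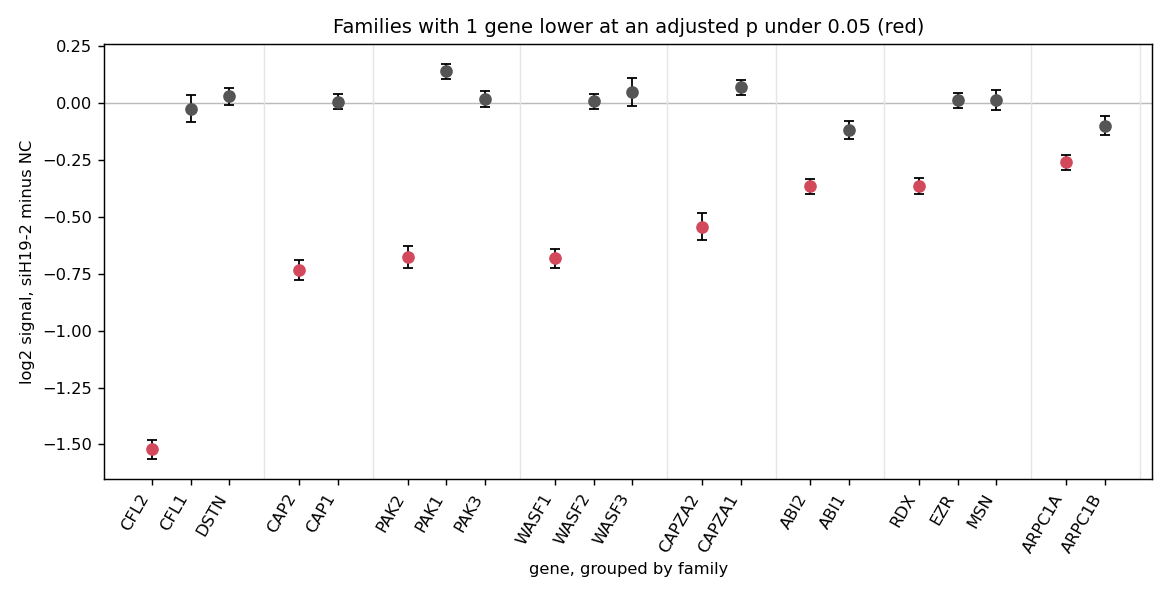
Log2 signal of siH19-2 minus NC (vertical axis) for the genes of 8 families (horizontal axis), with standard errors from limma. The red gene of each family had an adjusted p under 0.05 and was lower, from CFL2 at -1.52 to ARPC1A at -0.26, while its grey relatives lay between -0.12 and 0.14.

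Because CFL2 and CAP2 are known from muscle, markers of skeletal muscle were examined on the same arrays. None of MYOD1, MYOG, DES, CKM and ACTN2 passed by limma, and their adjusted p was 0.30 or more. Their mean log2 signal was 6.36 to 6.42 on the NC arrays and 6.38 to 6.45 on the siH19-2 arrays, and the ranges overlapped. Of 5 fibroblast markers, COL1A2 fell by 0.19 (adjusted p = 0.032 from limma) and no other passed, and none of 5 leukocyte, 3 endothelial and 5 acinar and islet markers did. The part of KRT19 and COL1A2, which were lower on the same arrays as CFL2, was not tested.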

How the data were processed

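MIA-PaCa2 cells were compared between siH19-2 (3 arrays) and NC (3 arrays), with groups and replicate numbers from the sample labels. The authors deposited log2 signals of each array, normalized between arrays and summarized to 1 probe set per gene. Their methods name limma for the normalization and JMP for the array data, and no coordinates are printed, since the genome build, like the background correction and annotation release, is not given in the sources used here. The sorted values of the arrays differed by at most 0.00184. A further deposited table pairs probe sets with gene names and holds the authors' group means, their log2 difference, standardized means and t values as scores, p-values, the −log10 of the p-value and a significance mark. Its comparison columns were not used. The alternatives were other scalings, priors, filters, adjustments and thresholds, the methods' t-test, a replicate block, and each array left out.

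Of 39334 probe sets, 39261 carried a gene name and entered the two-sided limma fit (version 3.58.1 under R 4.3.3, functions lmFit and eBayes, with 4 residual degrees of freedom and 1.92 from the prior). Adjustment was by Benjamini-Hochberg over all of them, without a filter on dim probe sets. Probe sets are called brighter where they had a mean log2 signal above 6.16. The fit was tested on simulated data. List genes were matched by gene ID to a RefSeq table of GRCh38.p14, and 4 carried an older symbol. Shifts between paralogues were computed from the difference of the genes on each array, with 4 degrees of freedom. The genes named are the 10 genes of the set, their pseudogenes, H19, for each list the 4 genes or fewer of smallest p, and the 5 probe sets nearest to CFL2. The genes and lists were chosen with earlier results of these data known, and the families were formed after the values were seen. With 3 arrays against 3, no exact permutation p can be below 0.1. No sequence of the siRNAs or of the transcripts was used here.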

Additional observations from a re-analysis of the deposited data

How the results depend on the processing

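The number of transcripts at an adjusted p under 0.05 from limma, 2067 over all probe sets, was 464 to 1078 without any one array. It was 4058 among the brighter probe sets, 3449 with an intensity trend and robust prior, 43 with Bonferroni-Holm and 30 at an unadjusted p under 0.05 with an absolute log2 difference above 1. In the 7 lists, the 12 higher genes became 23 among the brighter probe sets, 22 with the trend and robust prior, 20 by the methods' t-test with Benjamini-Hochberg adjustment and 2 to 5 without any one array. The 9 lower genes were 6 to 9 without any one array. Bonferroni-Holm and the threshold with the log2 difference left 0 lower and 0 higher genes in the lists, where 56 of 136 had an unadjusted p under 0.05 from limma. With the replicate number as a block, 74 transcripts passed in all, and in the lists 0 lower and 0 higher genes did, with 43 at an unadjusted p under 0.05. The labels do not say whether same-numbered arrays belong together. Deviations of such arrays from their group means correlated at 0.0052 to 0.0099, and 0 arrays correlated best with their own number. These correlations do not settle whether the arrays were paired. CFL2 was the only one of the 10 genes to pass with the block, but it was chosen for its fall, so nothing is read from this. Scaling by array medians or by cyclic loess turned no called gene, and all 17 called genes among the 28 named from the lists kept their sign in every alternative. Without any one array this was bound to hold, since the groups did not overlap for these 17 genes. Apart from the scalings, the remaining alternatives leave the log2 difference unchanged. Of these 17, 8 passed without any one array: PAK2, CAP2, WDR1, CAPZA2, WASF1, CTTN, ABI2 and RDX. The log2 differences of CFL1 (-0.08 to 0.03) and CAP1 (-0.01 to 0.02) crossed 0 between alternatives. The number of arrays limits the precision.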
